A study of Mus musculus with 6 samples.

Results

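Interleukins are secreted messengers between leukocytes and their neighbours, and each acts through 1 or more receptor chains on the cell that receives it. The genes described here are those whose mouse symbol begins with Il, a number, and then a letter or nothing, and which had at least 1 count in any liver. Of 83 symbols of that form, 68 met the rule, among 49671 genes in the count table and 29420 with a count. By role they were 25 ligands, 37 receptors, 4 inhibitors and 2 others, the last being Il1bos, an antisense RNA, and Il4i1, an amino acid oxidase. The livers came from male C57BL/6J mice. In the 3 SHMT2 WT mice both Shmt2 alleles were floxed and no Cre was present (SHMT2 fl/fl). In the 3 SHMT2 KO mice the same alleles were deleted by Cre under the Albumin promoter (SHMT2 HKO), which was used to target hepatocytes. The study proposes, from its protein blots, that the other cells of the liver kept SHMT2. At 4 weeks of age both groups were moved to AMLN feed, with much fat, cholesterol and fructose, and they stayed on it for 18 weeks until the livers were taken at 22 weeks. The question put to the data was how the interleukin genes of such a liver differed when hepatocytes lacked Shmt2, and whether ligands and receptors differed alike.

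Interleukin ligands are made at low levels by most tissues and at high levels by activated macrophages, lymphocytes and damaged epithelium. Their receptors fall into families that share chains. The common gamma chain, Il2rg, serves IL-2, IL-4, IL-7, IL-15 and IL-21, while Il6st (gp130) serves IL-6, IL-11 and IL-27, and Il1rap serves IL-1, IL-33 and IL-36. In the liver, IL-1 and IL-6 act on hepatocytes to raise acute-phase proteins, and IL-1, IL-17 and IL-23 are known from inflammation in fatty liver disease.

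Gene counts were 33954714, 23090837 and 34089722 in the WT libraries and 29092690, 24641842 and 25848326 in the KO libraries. A count of 3 corresponded to 0.088 to 0.13 CPM (the count scaled to library size), so that ligands of a few counts lay at the limit of what these libraries could measure. Shmt2 was at 94.6, 109 and 93.9 CPM in WT and at 24.9, 28.3 and 19.3 CPM in KO, a log2 fold change of -2.04 ± 0.16 (SE; adjusted p = 0.000639). The labels and the deleted gene therefore matched in every library. Hepatocyte markers, led by Alb, summed to 48409 to 59910 CPM in WT and 60412 to 90753 CPM in KO, as fits liver. Some libraries stood apart within their group. KO1 held 3405 CPM of Saa1, an acute-phase protein, against 260 and 174 CPM in the other KO livers, and WT2 held 3.39 CPM of the Kupffer cell gene Vsig4 against 11.4 and 10.9 CPM. KO3 lay closest to WT for leukocyte markers, which summed to 98.4 CPM there, 55.4 CPM in KO1 and 69.8 CPM in KO2. All p-values measure the spread between 3 mice and 3 mice.

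Most interleukin genes that differed were lower in KO. Of the 45 genes with enough counts to test, 21 fell, 2 rose and 22 did not pass an adjusted p of 0.05. Over all 16089 genes tested, 16.5% were called lower and 12.5% higher. Every KO value lay below every WT value for 25 of the 45 and above for 3, where the shares of all genes were 25.0% and 21.9%. The median log2 fold change was -0.70 for the 45 and 0.03 for all genes. These counts are not free of the filter on low counts, since 31 genes passed it on the KO livers alone and 14 passed only with the WT livers, 13 of them with the higher mean in WT. Left with 2 WT mice, the fit called 11 genes lower without WT1, 13 without WT2 and 10 without WT3, and it called 21 without KO1, 14 without KO2 and 21 without KO3. The 7 genes Il10ra, Il10rb, Il17rd, Il17re, Il21r, Il23a and Il2rg were called under each of the other settings that tested them, out of 15 tried. Among these, Il21r and Il23a passed the filter only with the WT livers. The setting with at least 10 counts in every sample did not test them.

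**Figure D1:**
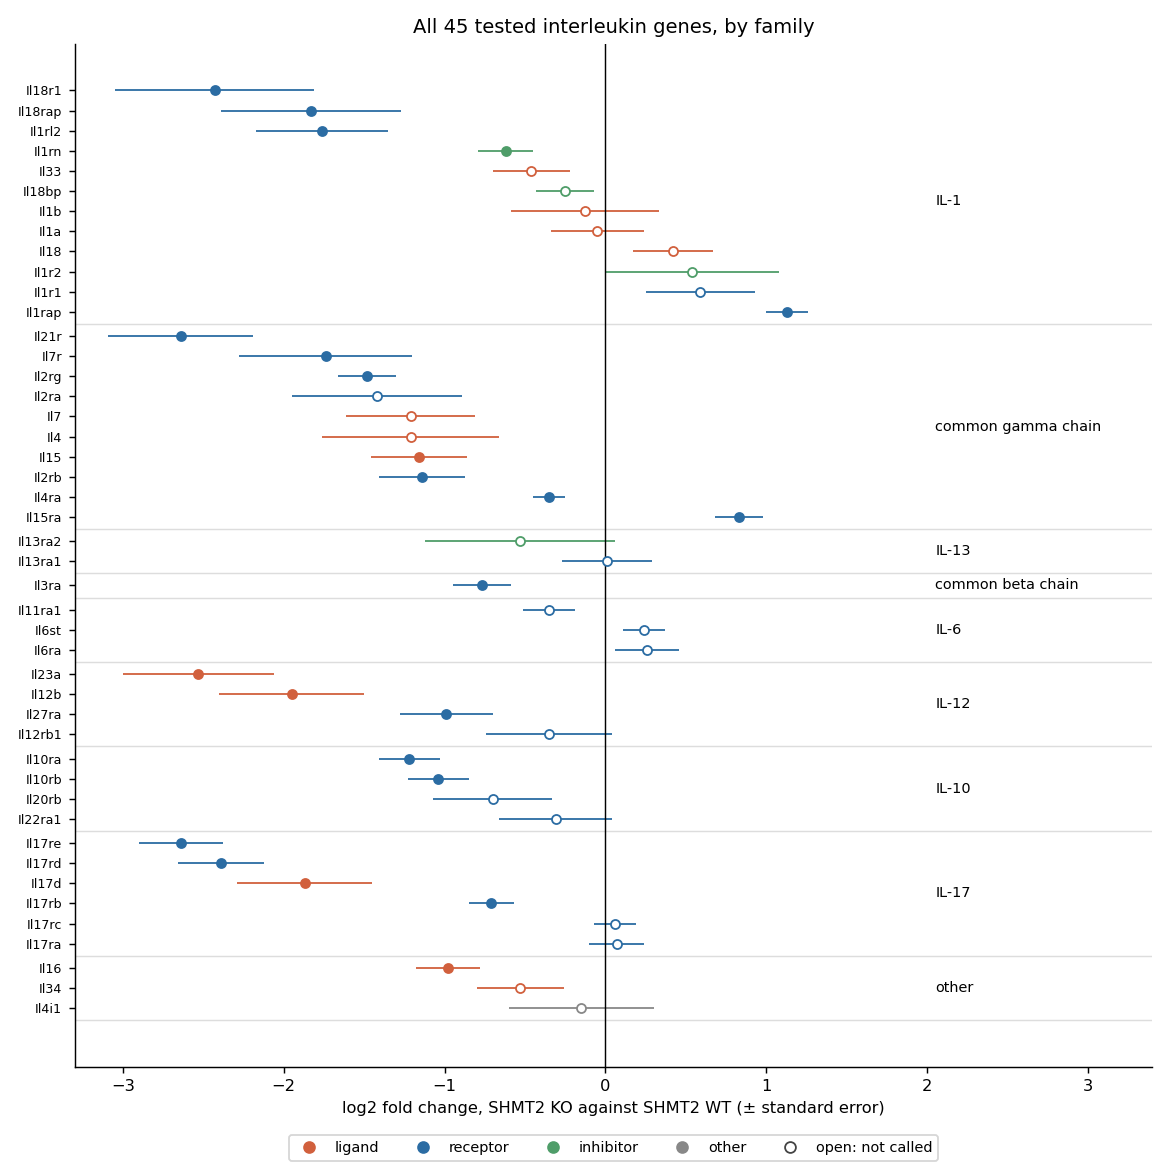
Log2 fold change (x axis, KO against WT, ± standard error, 3 mice per group) of each of the 45 tested interleukin genes (rows), grouped by family and coloured by role, with filled points for an adjusted p under 0.05. The 21 filled points left of 0 reach from -0.35 for Il4ra to -2.64 for Il17re and Il21r, and only Il1rap at 1.13 and Il15ra at 0.83 are filled on the right.

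More ligand and receptor genes fell than rose, and the summed ligand level was lower in KO. Of 12 ligands tested, 5 fell and none rose (median -1.07). Of 28 receptors, 15 fell and 2 rose (median -0.74), and of 4 inhibitors 1 fell (median -0.39). Over all genes, 16.5% were called lower and 12.5% higher, and the counts by role were not tested against these shares. Of the called genes, 3 ligands (Il12b, Il17d and Il23a) and 5 receptors (Il18r1, Il18rap, Il1rl2, Il21r and Il7r) passed the filter only with the WT livers, so that they could not have entered the test on the KO livers alone. The ligand and receptor medians were -0.51 and -0.39 with at least 10 counts in every sample, and -1.84 and -1.53 with the libraries scaled to the ERCC spike-in RNAs. Summed ligand CPM was 46.6, 43.6 and 45.3 in WT and 31.8, 37.2 and 29.4 in KO, so that all KO livers lay below all WT livers. Summed receptor CPM was 657, 702 and 705 in WT and 776, 700 and 748 in KO, and the groups overlapped. With library size in place of TMM the receptor sums were 792, 809 and 793 in WT and 629, 561 and 736 in KO, so that the KO livers then lay below the WT livers. With ERCC scaling the receptor groups overlapped with KO lower on average, and the ligand sums were lower in every KO liver under both scalings. The receptor sum was carried by genes that were not called or rose, chiefly Il6st at 164, 171 and 181 CPM in WT and 188, 195 and 227 CPM in KO, and Il1rap. Whether ligands and receptors differed from each other was not tested. A liver sample cannot tell fewer cells of a type from less RNA in each of those cells, and this holds for every value here.

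**Figure D2:**
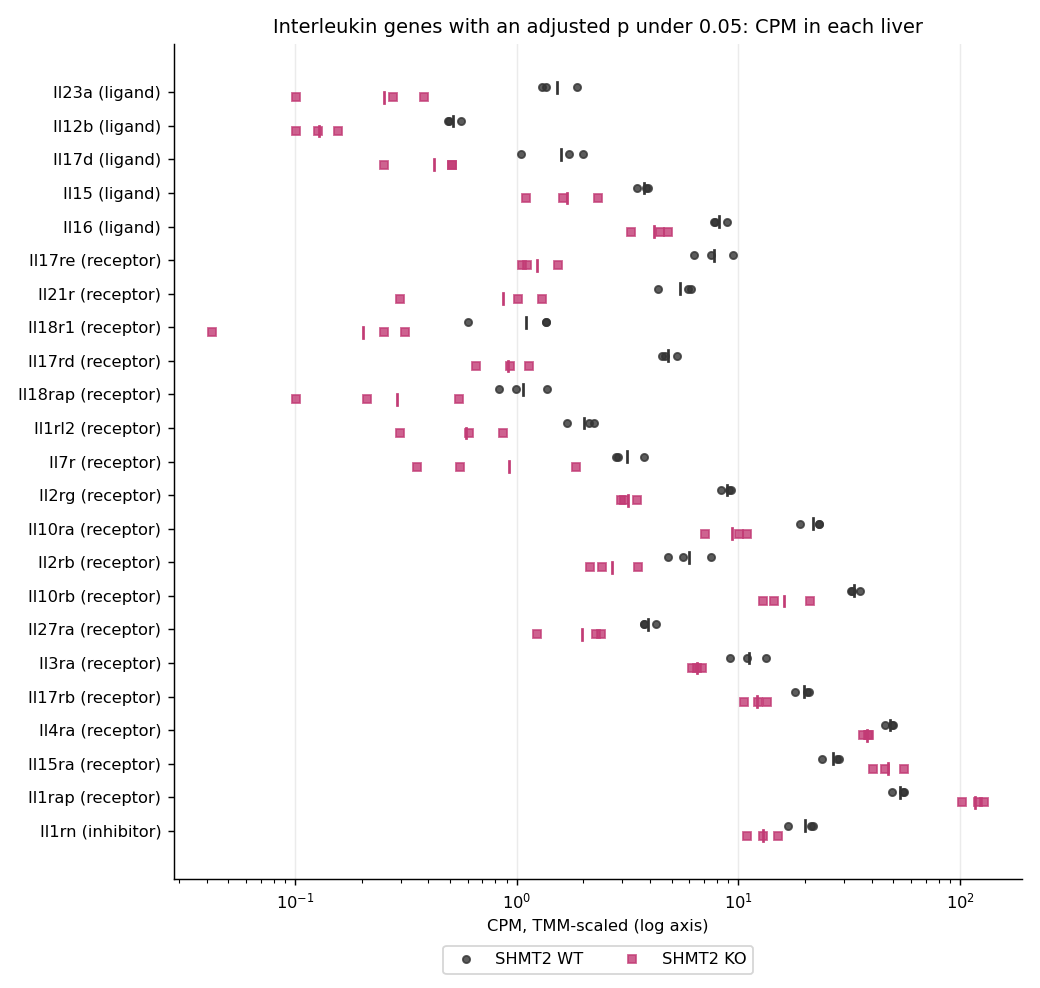
CPM (log axis) in each liver for the 23 called interleukin genes (rows, with their role), as circles for SHMT2 WT and squares for SHMT2 KO, 3 of each, with a bar at the group mean. The groups do not overlap in any row, and the KO squares lie left of the circles except for Il15ra and Il1rap.

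The ligands with the highest level per exon length were Il18 at 7.75 RPKM (CPM per kilobase of exon, mean of all 6 livers), Il34 at 4.04, Il1a at 1.77 and Il1b at 1.32, followed by Il15 and Il33 at 1.20 each. Of these, Il15 alone passed the test. The order below Il1a differed by group. In WT, Il15 (1.66 RPKM) and Il33 (1.39) lay above Il1b (1.38), and in KO, Il1b (1.27) lay above Il33 (1.01) and Il15 (0.744). Il18, an activator of natural killer (NK) and T cells, was at 7.63, 6.51 and 6.32 CPM in WT and 11.2, 10.5 and 5.83 CPM in KO, with 1 KO liver below all WT livers (0.42 ± 0.25 on the log2 scale, adjusted p = 0.247). Without that liver, KO3, it was called higher (0.64, adjusted p = 0.0235). Il1b, the secreted alarm signal of macrophages, was at 3.74, 0.941 and 3.18 CPM in WT and 2.29, 2.79 and 2.16 CPM in KO. The WT2 library was the lowest of all 6 and the KO livers lay between the WT livers (-0.13 ± 0.46, adjusted p = 0.848). Il1a gave -0.05 ± 0.29 and Il33, a nuclear cytokine of epithelium and endothelium, -0.46 ± 0.24 (adjusted p = 0.92 and 0.184), and Il33 was called without TMM (0.0407). Il34, a ligand of the macrophage receptor Csf1r, was lower in every KO liver at 3.78, 7.70 and 7.95 CPM against 8.98, 9.82 and 9.32 CPM, but missed the threshold (-0.53 ± 0.27, adjusted p = 0.176).

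The 2 subunits of IL-23 both fell, but both passed the filter only with the WT livers. Il23a, the p19 subunit that is its own, was at 1.30, 1.88 and 1.36 CPM in WT and 0.382, 0.101 and 0.276 CPM in KO (-2.53 ± 0.47, adjusted p = 0.00645). Il12b, the p40 subunit shared with IL-12, was at 0.563, 0.489 and 0.496 CPM in WT and 0.127, 0.101 and 0.157 CPM in KO (-1.95 ± 0.45, adjusted p = 0.0154). Both genes were separate between groups, at counts of 50 to 53 against 2 to 9 for Il23a and 13 to 23 against 2 to 4 for Il12b. The call for Il12b was lost without WT1 (adjusted p = 0.0621), WT2 (0.0535), WT3 (0.0601) or KO2 (0.0529), and with no filter (0.0532). Il12a, the subunit that makes IL-12 with p40, had 1 count in all 6 livers. On the receptor side, Il23r had counts of 3, 0 and 0 in WT and 4, 0 and 0 in KO and was not tested, while Il12rb1, which binds p40, gave -0.35 ± 0.39 (adjusted p = 0.537). Il27ra, the receptor of IL-27, fell from 3.77, 3.76 and 4.23 CPM to 1.23, 2.28 and 2.40 CPM (-0.99 ± 0.29, adjusted p = 0.0357), a call lost without WT1 (0.0933), WT2 (0.0881), WT3 (0.124) or KO2 (0.0646). Its ligand subunits were at 21, 5 and 9 counts in WT and 7 in each KO liver for Il27, and at -1.11 for Ebi3 (adjusted p = 0.0527).

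In the IL-1 family the shared chain Il1rap rose, while the IL-36 receptor Il1rl2 and both chains of the IL-18 receptor, a receptor that does not use Il1rap, fell. The 3 that fell passed the filter only with the WT livers. Il1rap, the co-receptor that IL-1, IL-33 and IL-36 need to signal, was at 55.2, 49.1 and 56.1 CPM in WT and 128, 121 and 102 CPM in KO, a rise of 1.13 ± 0.13 (adjusted p = 0.00132). Every KO liver exceeded every WT liver. With ERCC scaling, which moved the median log2 fold change of all genes by -0.72, the value was 0.35 (adjusted p = 0.597). Il1r1, which binds IL-1, was at 39.3, 44.6 and 44.6 CPM in WT and 85.3, 30.3 and 77.7 CPM in KO, with KO2 the lowest of the 6 and the other KO livers the highest (0.59 ± 0.34, adjusted p = 0.228). Without KO2 it was called higher (0.93, adjusted p = 0.008).

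The 2 chains of the IL-18 receptor fell. Il18r1, which binds IL-18, was at 1.35, 0.602 and 1.36 CPM in WT and 0.0424, 0.253 and 0.315 CPM in KO (-2.43 ± 0.62, adjusted p = 0.022). Il18rap, its signalling partner, was at 1.37, 0.828 and 0.992 CPM in WT and 0.212, 0.101 and 0.551 CPM in KO (-1.83 ± 0.56, adjusted p = 0.0399). Both genes rest on few counts in KO, 14 and 21 over the 3 livers. The Il18r1 call was lost without WT1 (adjusted p = 0.0808), WT3 (0.0853) or KO2 (0.0599), and that of Il18rap without WT1 (0.14), WT2 (0.0775), WT3 (0.105), KO1 (0.0657) or KO2 (0.102). Il18bp, the secreted decoy that binds IL-18, gave -0.25 ± 0.18 (adjusted p = 0.345).

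Il1rl2, the IL-36 receptor, fell from 2.23, 1.69 and 2.11 CPM to 0.297, 0.608 and 0.866 CPM (-1.76 ± 0.41, adjusted p = 0.0154). Il1rn, the IL-1 receptor antagonist, which blocks Il1r1, fell from 21.3, 16.7 and 21.7 CPM to 12.9, 10.9 and 15.1 CPM (-0.62 ± 0.17, adjusted p = 0.0282). It was the one inhibitor called. The Il1rl2 call was lost without WT1 (0.0619) or WT3 (0.0625), and the Il1rn call without WT1 (0.10), WT3 (0.11) or KO2 (0.0911) and with ERCC scaling (0.0831). Il1r2, the decoy receptor, had 34 counts in WT and 32 in KO, or means of 0.305 and 0.45 CPM, and was not called (0.54 ± 0.54, adjusted p = 0.49).

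Of 10 tested genes of the common gamma family, ligands among them, 6 fell and 1 rose. Over all genes, 16.5% were called lower and 12.5% higher. Of the chains that fell, Il21r and Il7r passed the filter only with the WT livers. Il2rg itself was at 9.05, 8.31 and 9.24 CPM in WT and 3.06, 2.94 and 3.50 CPM in KO, with little spread in either group (-1.48 ± 0.18, adjusted p = 0.00144). Of its exon length, 30.5% is shared on the same strand with the predicted gene Gm20489, so reads there are uncertain. Il21r, which receives IL-21 on lymphocytes, fell from 5.92, 4.33 and 6.08 CPM to 0.297, 1.01 and 1.30 CPM (-2.64 ± 0.45, adjusted p = 0.00468). Its ligand Il21 had no count.

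Il7r, the IL-7 receptor of naive T cells and innate lymphoid cells, fell from 2.79, 3.76 and 2.87 CPM to 0.552, 0.354 and 1.85 CPM (-1.74 ± 0.54, adjusted p = 0.0423). KO3 held the most of the KO livers, and the call was lost without any WT library (0.0954, 0.123 and 0.102 without WT1, WT2 and WT3), KO1 (0.0659) or KO2 (0.0997). The ligand Il7 was lower in each KO liver, at 0.806, 0.658 and 0.315 CPM against 1.25, 1.32 and 1.54 CPM, short of the threshold (-1.21 ± 0.40, adjusted p = 0.0543). Il7 was called lower with DESeq2 (0.044), limma-voom (0.0409), no TMM (0.0122), upper-quartile (0.0453) and ERCC scaling (0.0126), and without KO1 (0.0268). Il2rb, shared by IL-2 and IL-15, fell from 5.65, 7.52 and 4.83 CPM to 2.42, 2.13 and 3.54 CPM (-1.14 ± 0.27, adjusted p = 0.0172). That call was lost without WT1 (0.0509), WT2 (0.0684) or KO2 (0.0597). Il2ra, the high-affinity IL-2 chain of regulatory T cells, was at 0.538, 1.39 and 0.574 CPM in WT and 0.255, 0.253 and 0.394 CPM in KO (-1.42 ± 0.53, adjusted p = 0.0745; 0.0327 without TMM and 0.0264 with ERCC scaling). Il7 and Il2ra passed the filter only with the WT livers, and with no filter neither was called (adjusted p = 0.101 and 0.114).

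IL-15 and its private receptor chain went opposite ways. Il15, which maintains NK and memory T cells, was at 3.82, 3.91 and 3.50 CPM in WT and 1.10, 2.33 and 1.61 CPM in KO (-1.16 ± 0.30, adjusted p = 0.0236). Il15ra, which holds IL-15 on the surface of the cell that makes it, was at 27.8, 23.8 and 28.4 CPM in WT and 56.0, 40.5 and 45.7 CPM in KO, a rise of 0.83 ± 0.15 (adjusted p = 0.00567). The groups were separate for both genes. The Il15 call was lost without WT1 (0.077), WT2 (0.0757) or WT3 (0.0714). The Il15ra call was lost with library size in place of TMM (0.101) and with ERCC scaling, where its log2 fold change was 0.08 (0.91).

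Il4, the signal of type 2 immunity, rested on few reads. Its counts were 37, 39 and 18 in WT and 14, 4 and 10 in KO, or 0.905, 1.47 and 0.470 CPM against 0.594, 0.203 and 0.394 CPM. KO1 exceeded WT3, so the groups overlapped, and the difference did not pass the test (-1.21 ± 0.55, adjusted p = 0.137; 0.0302 with ERCC scaling). Il4 passed the filter only with the WT livers, and with no filter the adjusted p of Il4 was 0.182. The IL-4 receptor chain Il4ra had the smallest called change of all members, from 45.8, 49.1 and 50.0 CPM to 36.3, 38.9 and 38.5 CPM (-0.35 ± 0.10, adjusted p = 0.0362). The Il4ra call was lost without any of WT1 (0.0726), WT2 (0.121), WT3 (0.139), KO1 (0.0818) or KO2 (0.0782), and with ERCC scaling (0.145) or no filter (0.0763). Il13ra1, which pairs with Il4ra to receive IL-4 and IL-13, was at 41.0, 36.8 and 39.4 CPM in WT and 57.9, 36.5 and 24.0 CPM in KO (0.01 ± 0.28, adjusted p = 0.977). Its sign changed with the scaling, and the KO livers spread to both sides of the WT livers. Il13 had no count.

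Both chains of the IL-10 receptor fell and were called under every alternative tried. Il10ra, the chain that binds IL-10 and is found on leukocytes, was at 23, 18.9 and 23.2 CPM in WT and 7.05, 10.1 and 10.9 CPM in KO (-1.22 ± 0.19, adjusted p = 0.00324). Il10rb, which IL-10, IL-22 and the lambda interferons share, was at 35.2, 32.1 and 32.4 CPM in WT and 14.4, 12.9 and 21.1 CPM in KO (-1.04 ± 0.19, adjusted p = 0.00567), with 14.9% of its exon length shared on the same strand with Gm21970. The ligand Il10 had counts of 8, 0 and 3 in WT and 0, 1 and 0 in KO, too few to test. Il22ra1, the IL-22 receptor of epithelium and hepatocytes, was at 2.69, 2.71 and 2.27 CPM in WT and 1.44, 1.52 and 3.19 CPM in KO, where KO3 was the highest of all (-0.31 ± 0.35, adjusted p = 0.543).

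The IL-17 receptors split into chains that fell and chains that gave values near 0. Il17re, which with Il17ra receives the epithelial cytokine IL-17C, was at 6.31, 9.41 and 7.54 CPM in WT and 1.06, 1.11 and 1.54 CPM in KO, with the smallest adjusted p of all interleukin genes (-2.64 ± 0.26, adjusted p = 0.000943). Il17rd, also known as Sef, an inhibitor of fibroblast growth factor signalling, fell from 4.67, 5.27 and 4.54 CPM to 0.934, 0.658 and 1.14 CPM (-2.39 ± 0.27, adjusted p = 0.00129). Il17rb, which receives IL-25, fell less, from 20.4, 20.8 and 18.0 CPM to 10.6, 12.3 and 13.4 CPM (-0.71 ± 0.14, adjusted p = 0.00837; 0.0616 with ERCC scaling). The chains for IL-17A and IL-17F lay elsewhere. Il17ra was at 33.5, 31.7 and 43.4 CPM in WT and 45.3, 33.7 and 35.1 CPM in KO (0.07 ± 0.17, adjusted p = 0.775), and Il17rc at 32.9, 41.9 and 41.3 CPM in WT and 38.6, 42.8 and 39.7 CPM in KO (0.06 ± 0.13, adjusted p = 0.754). Both took a negative sign without TMM, with upper-quartile or with ERCC scaling. Il17a had no count in any liver, which allows up to 3 counts in each library, and Il17f had 1 count in all. Il17d, another ligand of the IL-17 family, fell from 1.05, 1.99 and 1.72 CPM to 0.509, 0.253 and 0.512 CPM (-1.87 ± 0.42, adjusted p = 0.0139), a call lost without WT2 (0.0587) or WT3 (0.0607). Il17d passed the filter only with the WT livers.

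Among the receptors with the highest level per exon length, Il6st stood at 16.9 RPKM over all livers, Il17rc at 14.8, Il13ra1 at 10.6, Il11ra1 at 9.34 and Il1r1 at 8.43, and none of these 5 passed the test. The order differed by group. In KO, the called genes Il15ra (10.7 RPKM) and Il1rap (10.3) lay above Il1r1 (10.1) and Il11ra1 (8.22). In WT, the called genes Il10rb (8.73) and Il4ra (8.05) lay above Il1r1 (6.73). Il6st was higher in every KO liver by 0.24 ± 0.13 on the log2 scale (adjusted p = 0.204), a sign that turned without TMM and with ERCC scaling. Il6ra, the IL-6 chain of hepatocytes, was at 39.2, 62.0 and 38.3 CPM in WT and 51.6, 62.2 and 52.7 CPM in KO (0.26 ± 0.20, adjusted p = 0.369), also with a sign that turned under both. Il11ra1 gave -0.35 ± 0.16 (adjusted p = 0.137; 0.00607 without TMM) and has a near-identical copy, Il11ra2, so its reads may be divided. Il6 itself had 1 count, in WT3. A pair of further genes was called. Il3ra, the IL-3 receptor chain that pairs with the common beta chain, fell from 10.9, 13.3 and 9.19 CPM to 6.20, 6.84 and 6.49 CPM (-0.77 ± 0.18, adjusted p = 0.0155), a call lost without WT1 (0.0516) or WT2 (0.0655) and with ERCC scaling (0.0523). Il16, a chemoattractant for CD4+ cells, fell from 7.78, 7.86 and 8.90 CPM to 4.80, 4.41 and 3.27 CPM (-0.98 ± 0.20, adjusted p = 0.00961; 0.0517 without WT3), and 15.3% of its exon length lies opposite Stard5. The tested members not yet given, Il13ra2, a decoy for IL-13, Il20rb, a receptor chain of IL-20, and Il4i1, gave -0.53 ± 0.59, -0.70 ± 0.37 and -0.15 ± 0.45 and were not called (Il20rb was without KO1, -1.14, adjusted p = 0.0277, and without TMM, 0.0408), and 83.9% of the Il4i1 exon length lies opposite Tbc1d17.

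Some neighbouring genes were called and others not, or took opposite signs, in 3 of the 5 groups described here. Among the members, 5 groups lay within 100 kb of a neighbour in the GRCm38 annotation and held at least a pair of tested genes. On chromosome 1, Il1r2 and Il1r1 gave 0.54 and 0.59 and were not called, whereas Il1rl2, Il18r1 and Il18rap, downstream on the same strand, fell (-1.76, -2.43 and -1.83). On chromosome 6, Il17re (113458484 to 113470758) ends 668 bases before Il17rc begins (113471427 to 113483140). The first fell by 2.64 and the second gave 0.06. On chromosome 2, Il2ra gave -1.42 and Il15ra, 12096 bases further on, rose by 0.83, and on chromosome 7, Il4ra and Il21r both fell (-0.35 and -2.64). Il1a and Il1b on chromosome 2 were both uncalled. Differences between neighbours were not tested.

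**Figure D3:**
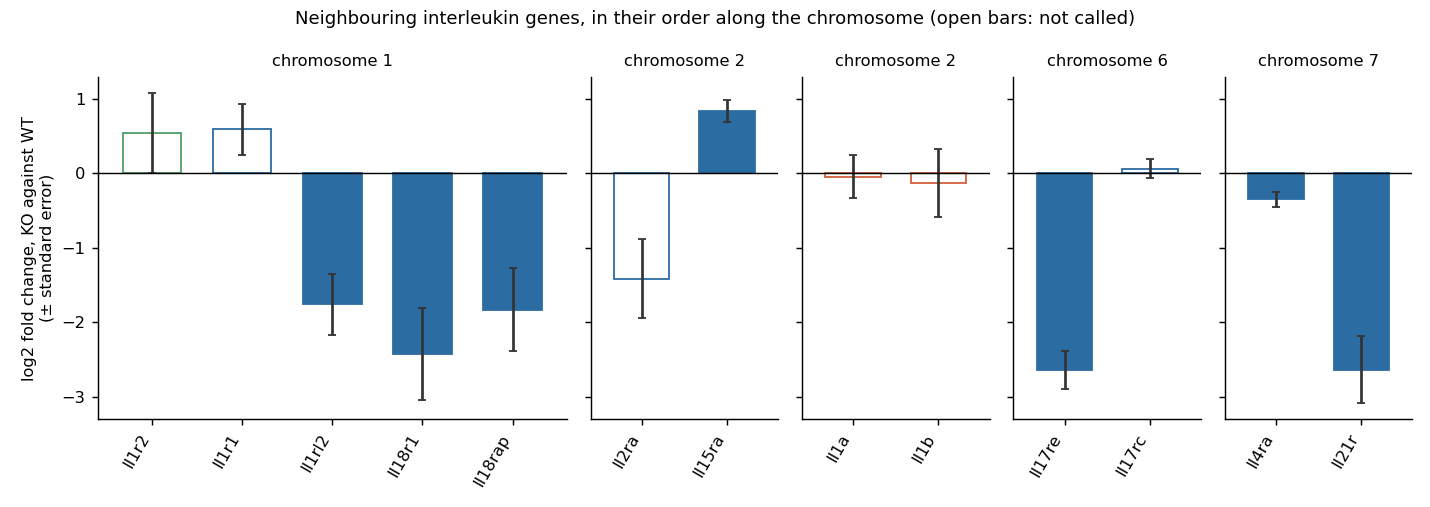
Log2 fold change (y axis, KO against WT, ± standard error) of tested interleukin genes that lie within 100 kb of each other, in their order along the chromosome (x axis), one panel per group and one colour per role, with open bars for genes not called. Il17re at -2.64 stands beside Il17rc at 0.06, and Il2ra at -1.42 beside Il15ra at 0.83.

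The promoters of Il18r1 and Il7r are shown because their genes, both lower in KO, were the only ones of the called genes with a window that held a STAT-type motif. STAT proteins carry the signal of most interleukin receptors to DNA. The windows are the 250 bases before the transcription start in RefSeq, on GRCm38.p6, and capitals mark the motif TTCNNNGAA, which reads alike on both strands, and, in Il7r, the ETS-type motif GGAAGT on the opposite strand. Matches were sought on both strands, and the motifs may share the letters GAA but do not overlap in these windows. The Il18r1 window is 1 of 3 of that gene, at chr1:40465756-40466005 on the plus strand, and the Il7r window lies at chr15:9529877-9530126 on the minus strand.
Il18r1: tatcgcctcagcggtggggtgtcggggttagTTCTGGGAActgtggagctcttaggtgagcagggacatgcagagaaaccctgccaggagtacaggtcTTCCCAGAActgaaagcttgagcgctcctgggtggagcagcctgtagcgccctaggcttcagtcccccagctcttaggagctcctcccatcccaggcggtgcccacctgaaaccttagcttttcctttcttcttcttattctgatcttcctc
Il7r: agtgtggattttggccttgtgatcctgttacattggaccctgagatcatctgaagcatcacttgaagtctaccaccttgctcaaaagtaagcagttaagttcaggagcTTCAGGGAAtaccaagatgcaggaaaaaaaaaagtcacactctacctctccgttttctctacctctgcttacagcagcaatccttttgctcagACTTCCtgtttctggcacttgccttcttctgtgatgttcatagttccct
Of the 21 lower genes, 15 had a window, and 2 of their 21 windows (9.52%) held the STAT motif, against 7.02% of the 32851 windows of all promoters. The ETS motif was in 5 of the 21 (23.8%), against 19.7% of all promoters and 10 of 22 windows (45.5%) of the tested members that were not called. Neither motif was in the 3 windows of the 2 higher genes. A match is a string of letters in a window and was not tested as a binding site.

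Below the level that could be tested lay 23 of the 68 members, 13 ligands, 9 receptors and 1 other, with 1 to 63 counts over the 6 livers and at most 3 counts for 8 of them. Il9r, the IL-9 receptor, had counts of 23, 8 and 27 in WT and 0, 3 and 2 in KO. Il1rl1 (ST2), the IL-33 receptor of type 2 lymphocytes and mast cells, had counts of 8, 18 and 17 in WT and 2, 2 and 1 in KO. The groups were separate for both, and with no filter both were called lower (adjusted p = 0.0284 and 0.0437). Il5 had counts of 6, 1 and 1 in WT and 1, 0 and 0 in KO, and Il12rb2 had 11, 11 and 12 in WT and 4, 0 and 10 in KO. A further 15 symbols had no count at all, among them Il3, Il9, Il13, Il17a, Il20, Il21, Il24, Il25 and Il31. The other members too low to test were the ligands Il2, Il11, Il17b, Il17c, Il19, Il1f9 and Il22, the receptors Il11ra2, Il1rapl1, Il20ra, Il31ra and Il5ra, and Il1bos. Il1f9, an IL-36 ligand, had counts of 16, 2 and 11 in WT and 14, 1 and 7 in KO, and Il17c, the ligand of Il17re, had 4, 1 and 6 in WT and 1, 1 and 0 in KO. Apart from Il9r and Il1rl1, no difference was detectable at this depth in the members too low to test, which is not the same as its absence.

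Among partners of the interleukin receptors that carry other symbols, 7 of 14 tested fell, 1 rose and 6 were not called (median -1.08), where 16.5% of all genes were called lower and 12.5% higher. Osm and Lif, like 5 of the called T cell markers (Cd3d, Cd3e, Cd247, Cd8b1 and Cd5), Klrb1c and Stat4, passed the filter only with the WT livers. The IL-6 family ligands Osm, Lif and Clcf1 fell (log2 fold changes of -2.76, -2.39 and -2.57, adjusted p = 0.00828, 0.0223 and 0.00083), and so did Osmr, the oncostatin M receptor (-1.28, adjusted p = 0.012). Lifr, the receptor that hepatocytes express for LIF, rose by 0.90 (0.0186). Lifr was not called without TMM (0.141), with ERCC scaling (0.822) or without WT1 (0.0557), WT2 (0.0677) or WT3 (0.074). The Lif call was lost without WT1 (0.0621), WT2 (0.0673), WT3 (0.0776) or KO2 (0.0633), and that of Osmr without WT3 (0.0535). Clcf1 had the highest level per exon length of these ligands, with 6.75 RPKM in WT, and was at 24.7, 26.7 and 25.7 CPM in WT and 3.27, 3.65 and 6.02 CPM in KO. The other partners that fell were Ifnlr1, the lambda interferon chain that pairs with Il10rb (-1.70, adjusted p = 0.00792), Crlf2, the thymic stromal lymphopoietin receptor that pairs with Il7r (-0.85, 0.00198), and Csf1r, the receptor of IL-34 (-0.69, 0.00931).

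Of 39 tested genes that signal below the receptors or process cytokines, 10 (25.6%) were called in either direction, beside 16.5% lower and 12.5% higher among all genes. Of 11 JAK and STAT genes, only Stat4, which carries the IL-12 signal in lymphocytes, was called, at 1.64, 2.18 and 1.83 CPM in WT and 0.806, 0.304 and 0.472 CPM in KO (-1.81 ± 0.40, adjusted p = 0.0129). Stat4 passed the filter only with the WT livers. Of 8 feedback inhibitors of JAK signalling, Socs1 and Socs5 fell (-1.43 and -0.87), and Cish, a target of STAT5, rose from 14.7, 19.8 and 17.0 CPM to 72.0, 32.1 and 43.7 CPM (1.52 ± 0.28, adjusted p = 0.00677). Of 12 genes of the MyD88 and IRAK pathway that IL-1, IL-18 and IL-33 use, Tab1 fell by 0.94 and Tollip rose by 0.40, and without TMM or with ERCC scaling the sign of Tollip turned. Of 8 genes that process IL-1 and IL-18 or shed cytokine receptors, Casp1, Casp4 and Pycard, parts of the inflammasomes, fell (-1.15, -1.89 and -1.45, adjusted p = 0.0246, 0.00125 and 0.00249). Casp8 rose by 0.48, a sign that turned with ERCC scaling, and it was not called without TMM (0.07, adjusted p = 0.796) or with upper-quartile scaling (0.0618). Tollip was not called with upper-quartile scaling (0.0531) or no filter (0.0729). Leaving out 1 library ended the calls of Stat4 (adjusted p = 0.0521 without WT2 and 0.0507 without WT3), Socs5 (0.0795 without WT1, 0.108 without WT3 and 0.0744 without KO2) and Casp1 (0.0971 without WT1 and 0.0708 without WT3). The same held for Tollip without WT1, WT2, WT3 or KO2 (0.0686 to 0.0915) and for Casp8 without WT1, WT2, WT3, KO1 or KO3 (0.0511 to 0.114), and Cish was not called with ERCC scaling (0.328).

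Of 21 genes that IL-6 and IL-1 are known to induce in hepatocytes, none fell, 5 rose and 16 were not called (median 0.84), where 12.5% of all genes were called higher. Among them was Crp, C-reactive protein, at 213, 235 and 190 CPM in WT and 516, 488 and 350 CPM in KO (1.09 ± 0.18, adjusted p = 0.00463). Orm1 and Orm3, orosomucoids, rose by 1.24 and 1.97 (adjusted p = 0.033 and 0.00671), and Saa4 rose by 2.0 (0.0378). The fifth was Saa3 at 1.86, with an adjusted p that rounds to 0.05 and a call lost under 10 alternatives, among them limma-voom (0.0702), no TMM (0.0703), ERCC scaling (0.278), no filter (0.235) and leaving out WT1 (0.126), WT2 (0.16), WT3 (0.108) or KO3 (0.0693). KO1 was the highest liver for many of them, and the list summed to 59406 CPM there against 25582 and 20146 CPM in the other KO livers and 18117 to 24975 CPM in WT. KO3 thus lay within the WT range. With ERCC scaling none of Crp (0.632), Orm1 (0.632), Orm3 (0.17) and Saa4 (0.126) was called, while Orm1 was not called without TMM (0.77, adjusted p = 0.0811) or with no filter (0.112), nor Saa4 with no filter (0.198). Leaving out 1 library ended the calls of Orm1 (WT1, WT2, WT3 or KO2, adjusted p of 0.0645 to 0.116) and Saa4 (WT1, WT2 or WT3, 0.0891 to 0.123).

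Most markers of T cells, dendritic cells and bile duct cells, and all general leukocyte markers, fell in KO, where 16.5% of all genes were called lower. Of 9 T cell markers, 8 fell (median -2.25), and their sum was 30.2, 23.4 and 27.7 CPM in WT and 8.28, 6.23 and 7.24 CPM in KO, led by Lck. Of the called T cell markers, Cd3d, Cd3e, Cd247, Cd8b1 and Cd5 passed the filter only with the WT livers. All 3 general leukocyte markers fell (median -1.28), Laptm5 being the most abundant, with a sum of 186, 168 and 191 CPM in WT and 55.4, 69.8 and 98.4 CPM in KO. Of 7 dendritic cell markers 4 fell (median -1.35), led by Itgax, with sums of 50.7, 58.1 and 53.8 CPM against 18.2, 20.5 and 36.6 CPM. All 6 cholangiocyte markers fell (median -2.80), among them Epcam and Krt19 (-3.12 and -2.97), and the list, led by Spp1, summed to 1049, 1239 and 997 CPM in WT and 150, 151 and 266 CPM in KO. Among the markers, Cd8b1 lost its call without WT3 (adjusted p = 0.0501), Cd5 without WT1, WT3 or KO2 (0.0635 to 0.0749), and Ptprc lost its call without WT1 or KO2 (0.0524 in each), and Flt3, Itgax and Siglech lost theirs without WT1, WT2, WT3 or KO2 (0.052 to 0.108), and Itgax also with no filter (0.19). The part of these cells in the lower interleukin genes was not tested.

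Markers of other cell types had fewer calls or calls in both directions, beside 16.5% of all genes called lower and 12.5% higher. A call of 1 gene in 6 is near these shares. Of 9 macrophage markers, Cd68 and Csf1r fell (-0.85 and -0.69), whereas Clec4f, Timd4, Vsig4 and Cd163, genes of resident Kupffer cells, rose by 2.83, 3.57, 1.49 and 5.12. The macrophage list, with Cd5l its most abundant gene, summed to 349, 219 and 303 CPM in WT and 377, 472 and 366 CPM in KO. Of 6 NK and type 1 innate lymphoid markers 1 fell (median -0.95), with Klrb1c the most abundant and sums of 5.06, 5.12 and 3.39 CPM against 2.84, 2.08 and 2.28 CPM. The gene that fell, Klrb1c, passed the filter only with the WT livers. Of 6 B cell markers 1, Cd22, fell (median -0.85), with sums of 14.1, 11.7 and 12.8 CPM against 3.95, 7.95 and 6.18 CPM. Of 4 tested neutrophil markers Csf3r fell (median 0.03), and Ly6g had 1 count in all livers. The list of type 2 innate lymphoid markers, led by Rora, which hepatocytes also express, had no call in 3 tested. Of the mast cell and basophil markers only Kit could be tested (0.38, not called), and Cpa3, Mcpt4, Tpsb2 and Mcpt8 had at most 3 counts each over the 6 livers. Of 7 stellate cell markers Pdgfrb and Des fell (-1.46 and -0.60) and Reln rose by 0.97 (median -0.11). Of 7 endothelial markers Stab2, Clec4g and Oit3 rose by 0.55, 1.93 and 0.96 (median 0.55), and of 6 hepatocyte markers 1, Ttr, rose (median 0.62). With ERCC scaling the signs of Stab2 and Ttr turned, and Vsig4 (0.39), Reln (0.597), Clec4g (0.104), Oit3 (0.657), Des (0.085) and Csf3r (0.0505) were not called. Without TMM, Stab2 (0.13, adjusted p = 0.526), Reln (0.57, 0.123), Oit3 (0.55, 0.137), Vsig4 (1.06, 0.0669) and Ttr (0.37, 0.157) were not called, nor was Vsig4 with no filter (0.162). The Ttr call was also lost with upper-quartile scaling (adjusted p = 0.0723), at least 10 counts in every sample (0.0586) and non-robust dispersions (0.0541). Leaving out 1 library ended the calls of Klrb1c (WT1, WT2, WT3 or KO2, adjusted p of 0.0532 to 0.109), Cd22 (WT1 or WT3, 0.057 and 0.0601), Csf3r (WT1, WT2, WT3 or KO2, 0.0573 to 0.152), Vsig4 (WT3, KO2 or KO3, 0.0542 to 0.0692), Des (WT2, WT3 or KO2, 0.0603 to 0.0804), Oit3 (WT2 or WT3, 0.0512 and 0.0571) and Ttr (all but KO3, 0.0837 to 0.169).

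**Figure D4:**
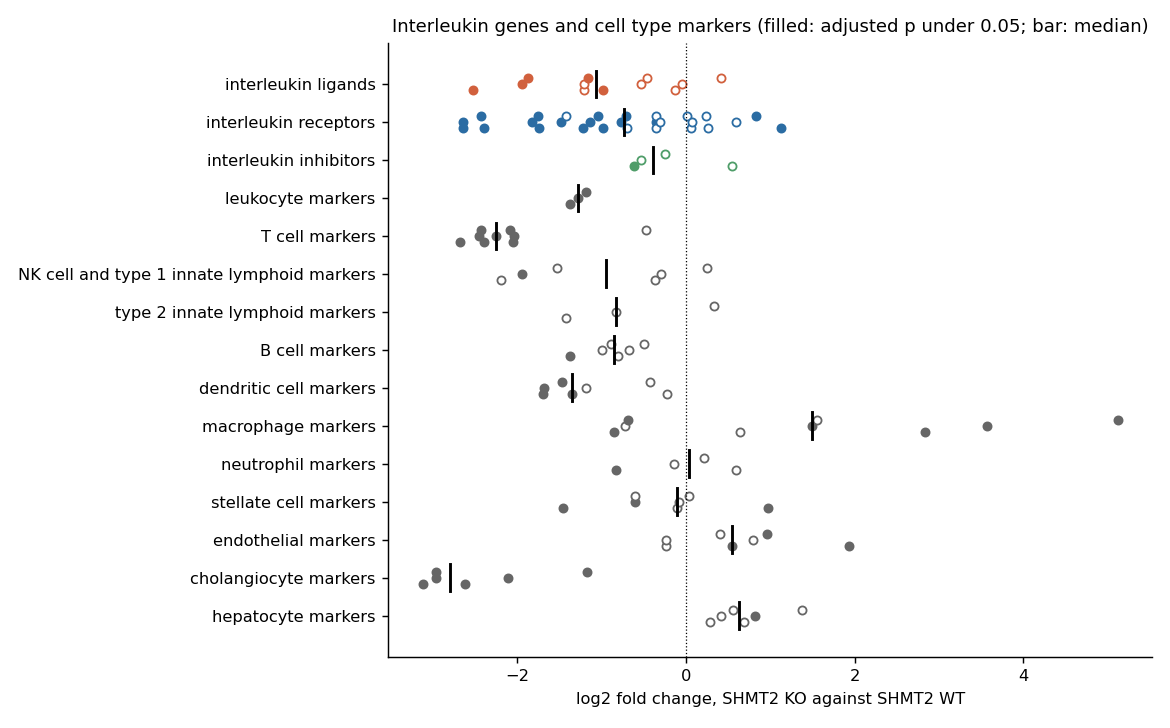
Log2 fold change (x axis, KO against WT) of each tested gene of the interleukin roles and of the cell type marker lists (rows), as points that are filled for an adjusted p under 0.05, with a bar at the median of each row. T cell markers (median -2.25) and cholangiocyte markers (median -2.80) lie furthest left, and macrophage markers spread from -0.85 to 5.12. Of the filled T cell markers, 5 passed the filter only with the WT livers.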

How the data were processed

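Liver RNA of 6 mice was sequenced in paired ends by the authors. Reads were trimmed (Trimmomatic 0.36), aligned to GRCm38 with ERCC sequences (STAR 2.5.2b) and counted on genes (featureCounts, Subread 1.5.2, in the submitters' processing notes). The values deposited by the authors are raw counts per gene, without normalization. Strand use and the treatment of overlapping genes are not given in the sources used here. The 92 ERCC rows entered neither the library sizes nor the tests.

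Genes were filtered by filterByExpr, scaled by TMM and tested, two-sided, with the quasi-likelihood F test of edgeR 4.0.16 (robust dispersions, R 4.3.3), with Benjamini-Hochberg adjustment over 16089 genes, and called at an adjusted p under 0.05. This test gave every adjusted p unless another setting is named. CPM used the TMM-scaled libraries, and RPKM divided CPM by the union of exons. Floors (3 counts) cover counting error only, and standard errors (±) are from the fit. The fit was tested on simulated data. The study's methods used limma-voom, run here as an alternative.

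The genes named were all called interleukin genes, the 5 ligands and 5 receptors highest in RPKM, the partners of called genes, Il4, Il1b, Il6, Il10 and Il17a, up to 4 called genes per list, and Shmt2. Other genes, the neighbouring pairs and the printed promoters were chosen after their values were seen. The members and lists were chosen with earlier results of these data known. Alternatives were DESeq2 1.42.0, limma-voom (limma 3.58.1), other scalings and filters, non-robust dispersions, a replicate block, the looser threshold of the study's methods and leaving out each mouse.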

Additional observations from a re-analysis of the deposited data

How the results depend on the processing

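None of the 23 called interleukin genes changed sign under any alternative, and 7 were called in every alternative that tested them. Il21r and Il23a, among these 7, were not tested with at least 10 counts in every sample. DESeq2, limma-voom, upper-quartile scaling, non-robust dispersions and a minimum of 10 counts in every sample lost no called interleukin gene that they tested. ERCC scaling lost 6, no filter 2 and library size without TMM 1. Among the called genes of the lists, upper-quartile scaling lost Casp8, Saa3, Tollip and Ttr, and limma-voom lost Saa3. The minimum of 10 counts lost Saa3 and Ttr, and non-robust dispersions lost Ttr. With at least 10 counts in every sample, 13 interleukin genes were called lower, since fewer could be tested. Leaving out a mouse gave 10 to 21 lower calls, and over all genes 1621 to 3076 lower and 805 to 2521 higher, where fewer mice entered the fit. Without TMM, 1 interleukin gene was called higher, and over all genes 4923 were lower and 539 higher. With ERCC scaling no interleukin gene (0) and 107 of all genes were called higher, against 2012 in the reported fit. These scalings moved the median of all genes by -0.42 and -0.72. The threshold of the study's methods called 3511 genes lower and 3143 higher, and 23 interleukin genes lower and 2 higher. The ligand median was -1.50 without TMM, -1.84 with ERCC scaling, -0.51 with at least 10 counts in every sample, and -1.08 to -0.89 with a mouse left out. The receptor median was -1.17, -1.53 and -0.39 under the first 3 of these, -0.83 with upper-quartile scaling, and -0.83 to -0.74 with a mouse left out. The inhibitor median was -0.78 without TMM, -1.03 with ERCC scaling, and -0.58 (without KO3) to -0.22 (without KO2) with a mouse left out.

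Some genes changed sign, among the interleukin genes only ones that were not called, and Casp8, Stab2, Tollip and Ttr among the called genes of the lists. Without TMM the values were -0.45 for Il13ra1, -0.35 for Il17ra, -0.36 for Il17rc, -0.04 for Il18, -0.17 for Il6ra and Il6st and -0.01 for Tollip. With ERCC scaling they were -0.90, -0.69, -0.64, -0.46, -0.43 for Il6ra, -0.42 for Il6st and -0.28 for Tollip, and -0.05 for Il1r1, -0.24 for Il1r2, -0.21 for Casp8, -0.15 for Stab2 and -0.06 for Ttr. Il13ra1 was also at -0.08 with limma-voom, -0.07 with upper-quartile scaling, -0.01 with no filter and -0.03 with at least 10 counts, and upper-quartile scaling gave -0.01 for Il17ra and -0.03 for Il17rc. With a mouse left out, the values ran from -0.37 to 0.25 for Il13ra1, -0.07 to 0.22 for Il17ra, -0.04 to 0.12 for Il17rc, -0.26 to 0.22 for Il1a, -0.52 to 0.21 for Il1b and -0.39 to 0.10 for Il4i1. The log2 ratio of summed receptor counts, 0.11 as reported, was -0.31 without TMM and -0.60 with ERCC scaling, and that of ligands, -0.46 as reported, was -0.90 and -1.22, a comparison added after the data were seen. Beyond the scalings, the cause was not tested.

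The replicate numbers did not pair the mice. Deviations of same-numbered WT and KO livers correlated at -0.05, 0 and -0.07, and no same-numbered pair was the best match of both of its samples. With a replicate block, 17 interleukin genes were lower and 2 higher (2187 and 1397 of all genes), with Il18r1 (adjusted p = 0.0501), Il18rap (0.0561), Il27ra (0.055) and Il4ra (0.0762) no longer called, nor Casp1 (0.0594), Saa4 (0.0693), Siglech (0.0504), Tollip (0.0551) and Ttr (0.134) of the lists, Il13ra1 was at -0.07 and Il1b at 0.03. Depth limits the genes under about 10 counts per liver.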
